A study of Mus musculus with 32 samples.

Results

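Chemokines and cytokines are small secreted or membrane-bound proteins by which tumor cells signal to immune and stromal cells. Chemokines of the CXC class with an ELR motif draw neutrophils through the receptor Cxcr2, chemokines of the CC class draw monocytes, lymphocytes or dendritic cells, colony-stimulating factors sustain myeloid cells, and Il6 and Il33 belong to the IL-6 and IL-1 cytokine families. Many of these genes are inducible targets of the transcription factor NF-kB, and in the alveolus type II epithelial cells are a known source of Csf2, of Il33 and of several CXC chemokines. The 10 genes, picked by name, were followed across bulk RNA-seq libraries of sorted mouse lung tumor cells: Cxcl1, Cxcl2, Cxcl5, Cxcl16, Ccl2, Ccl20, Csf1, Csf2, Il33 and Il6, that is 10 of the 53558 genes listed, in tumors with Lkb1 intact, trapped or restored.

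The study introduced a gene trap, the XTR allele, into Lkb1 (gene symbol Stk11), which Cre inverts to trap the gene and which tamoxifen-activated FLPo-ERT2 removes to restore it. Tumors were started in all mice by lentiviral Cre given into the trachea, which switched on oncogenic KrasLSL-G12D, and all groups carried this allele. The KT group (KrasLSL-G12D; Rosa26LSL-tdTomato; 4 libraries, 2 from females and 2 from males) had wild-type Lkb1 and received no treatment. All other groups carried the tdTomato reporter as well. By the study's methods, KT mice received a lower dose of lentiviral Cre than Trp53 wild-type mice with the XTR allele. The non-restored group (10 libraries) was homozygous for Lkb1 XTR and held 4 libraries of tamoxifen-treated mice without FLPo-ERT2 (2 female, 2 male) and 6 of vehicle-treated mice that carried FLPo-ERT2 (5 female, 1 male). The restored group (7 libraries, all female) carried Lkb1 XTR/XTR and FLPo-ERT2 and received tamoxifen. The remaining groups were also Trp53 flox/flox, so that Cre deleted Trp53. Non-restored Trp53-deficient tumors gave 7 libraries taken as 4 animals, of which replicates 1 to 3 shared an animal and replicates 4 and 5 another. Of these libraries 5 were vehicle with FLPo-ERT2 (3 female, 2 male) and 2 tamoxifen without it (1 female, 1 male). Restored Trp53-deficient tumors gave 4 libraries, all female, with FLPo-ERT2 and tamoxifen. Tumors grew 24 to 27 weeks in the Trp53 wild-type groups and 16 to 19 weeks in the Trp53-deficient groups, so Trp53 status and weeks of growth cannot be told apart. Treatment lasted 2 weeks, with tamoxifen in doses of 4 mg and corn oil as vehicle. Cells were sorted as tdTomato positive and DAPI, CD45, CD31, F4/80 and Ter119 negative, which should keep Cre-recombined cells and remove dead cells, leukocytes, endothelium, macrophages and red cells.

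The libraries held 1302482 to 5943951 expected counts (reads assigned by RSEM), so that a floor of 3 counts stood for 0.505 to 2.30 CPM (counts scaled to library size). Levels are given as TPM, RSEM's transcript abundance, which is scaled per transcript length and can be compared between genes, and differences as log2 fold changes of expected counts from edgeR. Stk11 followed the labels, with a mean of 22.5 TPM in KT, 0.45 in non-restored (at most 2.46 counts in any library), 16.2 in restored, 0.285 in non-restored Trp53-deficient and 11.1 in restored Trp53-deficient tumors. Epithelial and alveolar type II markers summed to between 7687 and 84556 CPM per library. Of the leukocyte and myeloid markers, Ly6g was at 0 in all 32 libraries, and Cd3e, C1qa, C1qb and Csf3r had at most 3 counts in any. Other myeloid markers were present, with Cd68 above 3 counts in 32 libraries, Mrc1 in 28, Chil3 in 27 and Retnlg in 23. In the sum of the 6 leukocyte markers 3 libraries stood apart from the others, which were at or below 12.6 CPM. They were non-restored replicate 2 (48.2 CPM) and restored replicates 1 (96.5 CPM) and 6 (67.0 CPM). Their macrophage markers were also high (368, 1270 and 547 CPM). Macrophage sums of 155, 172, 108 and 170 CPM were found in non-restored replicates 5 and 10, restored replicate 3 and restored Trp53-deficient replicate 3. Of the leukocyte markers, Ptprc, which codes for CD45, reached 45.4 CPM and Laptm5 43.4 CPM. Fibroblast and endothelial marker sums were uneven too, at 13.8 to 78.7 and 6.2 to 12.4 CPM in KT and at 6.5 to 412 and 1.86 to 117 CPM in non-restored tumors. Non-restored replicate 8 had the lowest epithelial and alveolar type II sum, 7687 CPM, and a mesothelial marker sum of 238.5 CPM, nearly all of it Msln, while the mesothelial genes Wt1, Upk3b and Lrrn4 reached at most 0.599, 4.05 and 2.46 CPM in any library. In bulk samples, fewer cells of a type and less RNA per cell cannot be told apart. The titles show shared animals only among the non-restored Trp53-deficient libraries, but the study counts fewer non-restored and restored Trp53 wild-type mice than there are libraries. Some libraries may thus share a mouse, and p-values that treat them as separate may be too small.

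The 10 genes covered a wide range of levels. Il33 stood far above the others, with a mean of 607 TPM over the 32 libraries, rank 198 of 53558 genes. Cxcl1 followed at 87.8 TPM, then Cxcl16 (38.3), Il6 (26), Csf2 (20.9), Cxcl2 (16), Cxcl5 (12.8), Ccl20 (5.75), Csf1 (2.34) and Ccl2 (1.19 TPM). Cxcl1, Cxcl16, Csf2 and Il33 exceeded 3 counts in all 32 libraries, Il6 in 31, Cxcl2 in 29, Cxcl5 in 21, Csf1 in 18, Ccl20 in 10 and Ccl2 in 6. By the rule that a gene was too low to measure in a group when every library of the group held at most 3 counts, Ccl2 (1 count in all) and Ccl20 (3 counts in all) were too low in KT. In every other group each of the 10 genes had at least 1 library above 3 counts. In the plot of the 10 genes by library, the lower row shows how many libraries of Cxcl5, Ccl20, Csf1 and Ccl2 lay at or near 0.

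**Figure D1:**
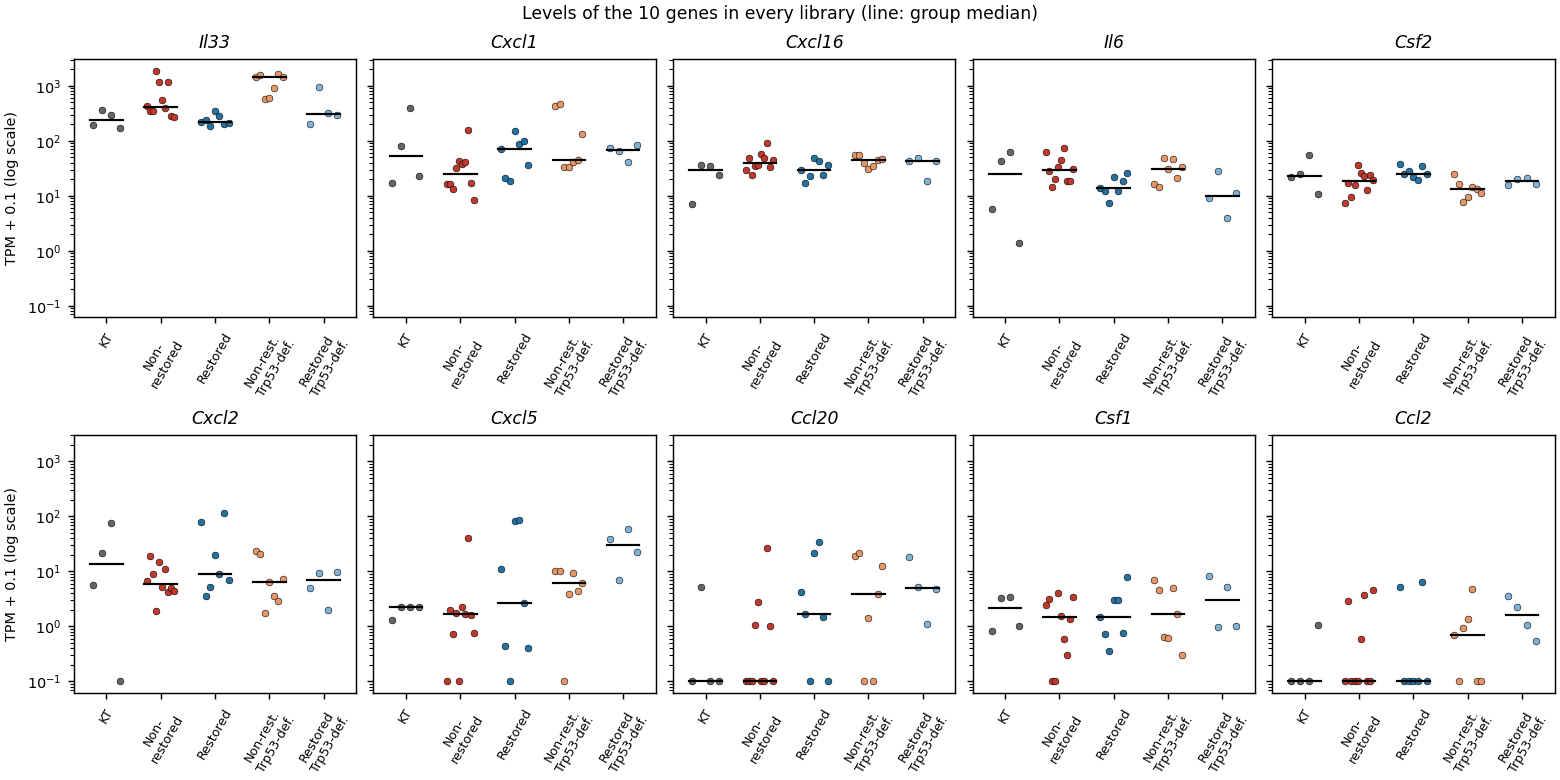
Levels of the 10 genes in each library, on a log axis of TPM plus 0.1; every point is a library, colored by its group of tumors, and the line is the group's median. Il33 lies between 169 and 1871 TPM throughout, while Ccl2 is at 0 in 17 of the 32 libraries.

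The neutrophil-attracting chemokines Cxcl1, Cxcl2 and Cxcl5 lie within 147 kb of each other on mouse chromosome 5 (GRCm38), at 90891241-90893115, 90903871-90905938 and 90759360-90761624, all on the plus strand, with Cxcl15 at 90794534-90803067 between them. The promoter windows of Cxcl1 and Cxcl2 in RefSeq (GRCm38.p6, 250 bases before to 50 after the start site) are shown because both hold the same NF-kB motif near the start site, searched as GGANNTTCC on both strands and printed in capitals. The first lies at chr5:90890995-90891294 and the second at chr5:90903649-90903948, both on the plus strand.
Cxcl1: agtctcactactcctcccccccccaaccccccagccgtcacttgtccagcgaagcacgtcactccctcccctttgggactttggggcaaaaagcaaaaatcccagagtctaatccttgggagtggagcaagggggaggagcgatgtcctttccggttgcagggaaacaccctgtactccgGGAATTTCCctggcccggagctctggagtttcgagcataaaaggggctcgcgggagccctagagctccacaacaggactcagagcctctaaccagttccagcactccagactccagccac
Cxcl2: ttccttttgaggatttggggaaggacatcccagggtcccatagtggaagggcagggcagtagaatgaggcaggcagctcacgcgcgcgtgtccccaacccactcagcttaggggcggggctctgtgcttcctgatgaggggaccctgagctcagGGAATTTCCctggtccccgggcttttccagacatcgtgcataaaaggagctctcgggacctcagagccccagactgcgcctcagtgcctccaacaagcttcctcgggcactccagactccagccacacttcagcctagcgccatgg
The motif began 70 bases before the start site of Cxcl1 and 96 bases before that of Cxcl2, and it occurred in 1399 of 32851 RefSeq promoter windows of the same length (4.26%). The motif was also found in the windows of Csf1 (154 bases before the start) and Il6, and not in those of Ccl20, Csf2 and Il33. Only these letters were searched, and not other forms of an NF-kB site. Neither the Cxcl1 nor the Cxcl2 window held the C/EBP motif TTGCNNAA, found in 10.8% of windows, or the AP-1 motif TGANTCA, found in 7.81%. Windows were at hand for 7 of the 10 genes, and not for Cxcl5, Cxcl16 and Ccl2.

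Cxcl1, a mouse ligand of Cxcr2, was abundant and very uneven among tumors of the same group. In KT the 4 libraries had 17.0, 81.9, 386 and 23.1 TPM. The 10 non-restored libraries ranged from 8.41 to 157 TPM with a median of 24.3, and the 7 restored libraries from 18.5 to 153 with a median of 72.1. A lone library set the upper end in 2 groups: KT replicate 3 and non-restored replicate 8, the next values being 81.9 and 42.1 TPM. In the Trp53-deficient tumors, the 3 libraries of 1 non-restored animal had 424, 462 and 33.6 TPM, so that libraries of the same mouse differed over 10-fold. The other 4 non-restored Trp53-deficient libraries had 34, 41.1, 44.3 and 131 TPM, and the 4 restored ones 72.4, 64.6, 40.3 and 84.8. The restored Trp53-deficient tumors were thus the most even group for this gene, and they lay inside the range of the non-restored ones.

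Cxcl2, a second Cxcr2 ligand released early in inflammation, was lower and was led by a few libraries. The KT libraries had 5.44, 21.6, 76.0 and 0 TPM, with the high value again in replicate 3. The non-restored libraries ranged from 1.83 to 18.9 TPM (median 5.84). Restored replicates 1 to 7 had 79.3, 3.48, 5.04, 19.5, 8.99, 114 and 6.73 TPM. The pair far above the rest, replicates 1 and 6, is the same pair that had the highest leukocyte and macrophage marker sums, and the highest non-restored value was in the library with the highest leukocyte sum of that group. KT replicate 3, at 76.0 TPM, had a leukocyte sum of 6.08 CPM and the highest macrophage sum of KT, 96.8 CPM. The summed leukocyte markers ranged from 0.827 to 6.08 CPM in KT, 1.6 to 48.2 in non-restored and 2.25 to 96.5 in restored tumors. Across all 29 units (libraries, or the summed libraries of an animal), Spearman's rho of Cxcl2 was 0.19 with the leukocyte sum. With the macrophage sum it was 0.16. Both values pool all groups, and the part of these sums in the Cxcl2 values was not tested. The Trp53-deficient libraries were between 1.67 and 22.9 TPM, with means of 7.49 ± 5.43 (SD, n = 4 animals) and 6.35 ± 3.65 (SD, n = 4) in non-restored and restored tumors.

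Cxcl5, made mainly by epithelial cells, was near 0 in most Trp53 wild-type tumors and high in a few. KT held 1.2, 2.16, 2.15 and 2.18 TPM, from 2 to 6 counts. Of the non-restored libraries 9 were at or below 2.19 TPM and replicate 8 was at 39.5. Restored replicates 1 to 7 had 11.0, 0.33, 0, 82.1, 85.5, 2.6 and 0.31 TPM, so replicates 4 and 5 held nearly all of the group's signal. Those 2 libraries also had mesothelial marker sums of 57.3 and 45.4 CPM, mostly Msln, against at most 3.05 in the other restored libraries. They had the lowest epithelial and alveolar type II sums of the group too, 34615 and 41019 CPM against at least 64347. The part of these sums in the Cxcl5 values was not tested. In restored Trp53-deficient tumors Cxcl5 was at 38.1, 6.73, 58.3 and 22.3 TPM, against 0 to 10.2 in the 7 non-restored libraries. Of the 4 restored libraries 3 lay above every non-restored library, and the groups overlapped through restored replicate 2.

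**Figure D2:**
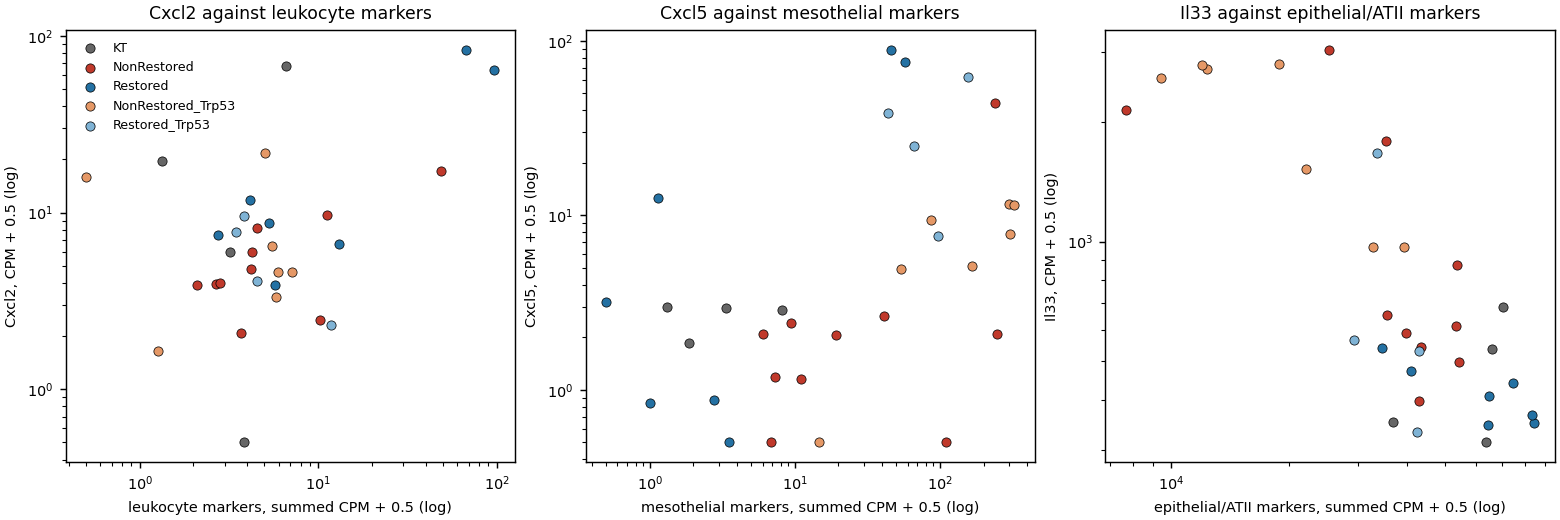
Cxcl2, Cxcl5 and Il33 against summed cell type markers in the 32 libraries, colored by group, on log axes of CPM plus 0.5 (left, Cxcl2 against leukocyte markers; middle, Cxcl5 against mesothelial markers; right, Il33 against epithelial and alveolar type II markers). The 2 restored libraries at 96.5 and 67.0 CPM of leukocyte markers are those with the highest Cxcl2 of their group. The high mesothelial sums are nearly all Msln. The high Il33 values lie at the low end of the epithelial and alveolar type II sums.

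Among the chemokines of other classes, Cxcl16 was the steadiest. It is a membrane-bound chemokine that Adam10 cleaves into a soluble ligand of Cxcr6 on T cells. Its mean was 25.4 ± 13.4 TPM in KT (SD, n = 4), 44.6 ± 19.5 in non-restored (n = 10), 31.4 ± 11.5 in restored (n = 7), 43.2 ± 7.56 in non-restored Trp53-deficient (n = 4 animals) and 38.5 ± 13.5 in restored Trp53-deficient tumors (n = 4). The highest library was non-restored replicate 8 at 92.0 TPM, and the lowest was KT replicate 1 at 7.02. Adam10 and Adam17, the main sheddases, averaged 75.5 and 31.4 TPM over all libraries and neither passed the test in any comparison. Adam10 came nearest, with a log2 fold change of 0.91 in non-restored against KT tumors (edgeR, SE 0.273, adjusted p = 0.0518).

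Ccl20, the ligand of Ccr6 on lymphocytes and dendritic cells, was measurable only in certain tumors. It had more than 3 counts in 10 of 32 libraries, among them non-restored replicate 8 with 55 counts (26.9 TPM) and restored replicates 4 and 5 with 34 and 66 counts (21.1 and 33.6 TPM). These are the same libraries that were high in Cxcl5. In the animal with 3 non-restored Trp53-deficient libraries, Ccl20 was at 30, 18 and 0 counts, and Cxcl5 at 37, 20 and 0, with replicate 3 again the lowest, as for Cxcl1. Over the 29 units (a unit is a library, or the summed libraries of an animal), Spearman's rho was 0.71 between Cxcl5 and Ccl20, 0.70 between Cxcl1 and Cxcl5 and 0.64 between Cxcl1 and Ccl20, all on log2 CPM of the same libraries. Ccl2, the main chemokine for monocytes, was at 0 in 17 libraries and reached its highest counts, 11, in restored replicate 6, with the most in any other library being 7. Its 55 counts over all libraries do not allow a comparison of groups.

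The colony-stimulating factors differed in how well they could be measured. Csf2, which codes for GM-CSF and is needed for alveolar macrophages, was present in all 32 libraries at 7.44 to 56.0 TPM, but from only 6 to 71 counts. Its mean was 28.2 ± 19.4 TPM in KT (SD, n = 4; replicate 3 at 56.0, the others between 10.9 and 24.4), 19.2 ± 8.68 in non-restored (n = 10) and 27.5 ± 6.86 in restored tumors (n = 7). In the Trp53-deficient tumors the means were 13.1 ± 2.28 (n = 4 animals) and 18.3 ± 2.90 TPM (n = 4). The restored libraries had 19.3 to 38.2 TPM and the non-restored ones 7.44 to 36.8, so that the groups overlapped, with 1 restored library above the highest non-restored one. Csf1, which codes for M-CSF, averaged between 1.59 TPM in non-restored and 3.73 TPM in restored Trp53-deficient tumors, and 62 of its 274 counts came from restored Trp53-deficient replicate 1. That library also had the highest fibroblast marker sum, 1476 CPM against at most 537 in any other, and its part in the Csf1 value was not tested. At this depth no difference of Csf1 between groups was detectable.

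Il33, an alarmin of the IL-1 family that is stored in the nucleus and released from damaged epithelium, had the highest group mean of the 10 genes in all 5 groups. Its gene lies at chr19:29925114-29960718 on the plus strand (GRCm38). The window of its first RefSeq start site, chr19:29924863-29925162, is printed to set beside those of the chemokines, and it held none of the NF-kB, C/EBP and AP-1 letters searched; the window of another start site held 1 C/EBP motif.
Il33: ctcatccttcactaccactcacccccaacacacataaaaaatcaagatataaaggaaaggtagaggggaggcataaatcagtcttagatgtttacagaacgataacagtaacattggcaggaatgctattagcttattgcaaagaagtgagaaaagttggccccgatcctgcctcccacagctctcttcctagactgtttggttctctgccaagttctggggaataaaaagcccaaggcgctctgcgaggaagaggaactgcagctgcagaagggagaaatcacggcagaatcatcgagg
In KT the libraries had 190, 357, 289 and 169 TPM. Non-restored replicates 1 to 10 had 427, 349, 342, 1871, 1184, 546, 389, 1160, 287 and 272 TPM. Restored replicates 1 to 7 had 220, 235, 189, 352, 278, 200 and 206 TPM. The restored libraries therefore lay in a narrow band around the KT values, with means of 240 ± 57.4 (SD, n = 7) and 251 ± 87.9 TPM (n = 4), while 3 non-restored libraries, replicates 4, 5 and 8, stood at 1160 or above and the other 7 reached down into the restored range. These 3 came from both arms, replicates 4 and 5 from vehicle and replicate 8 from tamoxifen. They also had the 3 highest mesothelial marker sums of the non-restored group (248, 109 and 238.5 CPM, nearly all Msln). Their epithelial and alveolar type II sums were the 3 lowest (25330, 35361 and 7687 CPM), although replicate 1, at 427 TPM, was close with 35598.

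Among the Trp53-deficient tumors, non-restored replicates 1 to 7 had 1456, 1546, 565, 588, 918, 1629 and 1435 TPM, and the restored libraries had 205, 962, 320 and 291. Of the 4 restored libraries 3 were below every non-restored animal, and replicate 2, at 962 TPM, was inside their range. The order of the group means was 1252 ± 378 TPM in non-restored Trp53-deficient (SD, n = 4 animals), 683 ± 539 in non-restored (n = 10), 444 ± 349 in restored Trp53-deficient (n = 4), 251 in KT and 240 in restored tumors. Neighbors in this order differed by less than the larger of their SDs, apart from the first pair, whose difference exceeded either SD. Over the 29 units, Il33 had a Spearman's rho of -0.71 with the epithelial and alveolar type II sum and 0.72 with the mesothelial sum. Both values pool the 5 groups. By median, the surfactant genes Sftpc, Sftpa1 and Sftpb led the first sum (20525, 10805 and 5782 CPM), with Epcam at 270 CPM. Sftpc ran from 604 to 47946 CPM and Epcam only from 205 to 644. The high mesothelial sums were nearly all Msln. The part of either sum in the Il33 differences was not tested.

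**Figure D3:**
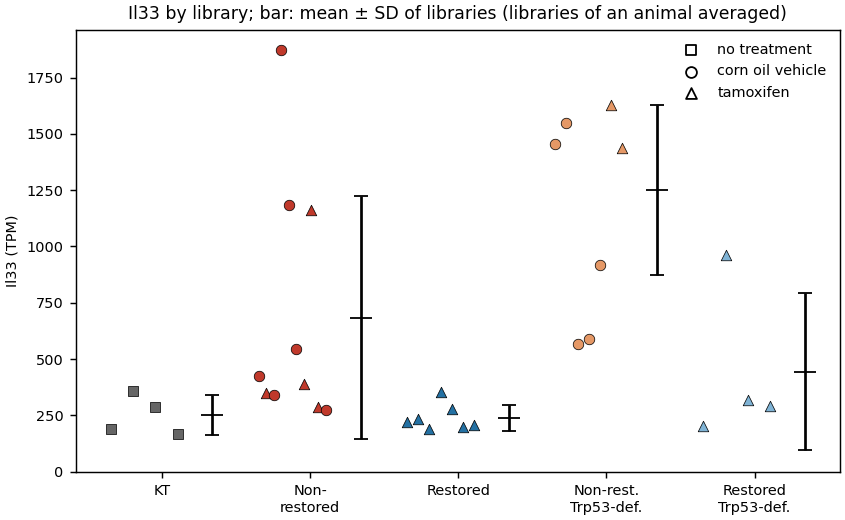
Il33 in TPM for each library (points; squares untreated, circles vehicle, triangles tamoxifen) with the group mean ± SD to the right, after averaging the libraries of an animal in the non-restored Trp53-deficient group. The restored Trp53 wild-type libraries lie between 189 and 352 TPM. The non-restored Trp53 wild-type libraries reach 1871 TPM in the vehicle arm and 1160 TPM in the tamoxifen arm.

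Il6, an inflammatory cytokine that acts through Il6ra and the shared subunit Il6st, was moderately expressed. Its promoter window, chr5:30012864-30013163 on the plus strand (GRCm38.p6), is printed because it held all 3 motifs searched, with the NF-kB motif 43 bases before the start site in capitals and 1 C/EBP and 1 AP-1 motif besides.
Il6: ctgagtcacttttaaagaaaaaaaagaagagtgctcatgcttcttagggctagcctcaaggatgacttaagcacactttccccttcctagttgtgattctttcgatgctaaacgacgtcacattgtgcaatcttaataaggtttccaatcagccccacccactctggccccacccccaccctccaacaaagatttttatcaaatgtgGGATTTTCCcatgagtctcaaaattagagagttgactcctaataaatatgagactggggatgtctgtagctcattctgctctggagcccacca
The KT libraries had 5.63, 42.9, 63.6 and 1.27 TPM, a spread that covered every other group apart from the highest non-restored library. KT replicate 4, lowest in Il6 and at 0 in Cxcl2, also had the lowest sum of the immediate early genes, which respond to handling of cells. Its sum was 1870 CPM, against 4930 to 9889 in the other KT libraries. KT replicate 1 had the highest of these sums, 9889 CPM, with 5.63 TPM of Il6 and 5.44 TPM of Cxcl2. Across the 29 units, Spearman's rho with this sum was 0.19 for Il6 and 0.45 for Cxcl2. The part of handling was not tested. The non-restored libraries ranged from 14.1 to 74.9 TPM with a median of 29, and the restored ones from 7.27 to 25.4 with a median of 13.7. Of the 7 restored libraries 4 lay below all non-restored ones. In the Trp53-deficient tumors the non-restored animals averaged 29.9 ± 7.62 TPM (SD, n = 4) and the restored ones 13.1 ± 10.7 (n = 4), with 3 of 4 restored libraries below all non-restored animals.

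The effect of Lkb1 restoration in Trp53 wild-type tumors was tested for 7 of the 10 genes, since Ccl2, Ccl20 and Csf1 did not pass the filter on low counts. None of the 7 passed an adjusted p of 0.05, against 236 of 12636 genes in all (1.87%), and 2 had an unadjusted p under 0.05, as did 15.1% of all genes. Il33 came nearest, at 418 CPM on average in restored and 1112 in non-restored tumors. Its fitted difference was -1.41 on the log2 scale (SE 0.386, adjusted p = 0.0648), rank 298 of the genes by p. It passed in 3 of 27 fits: with DESeq2 (adjusted p = 0.00541), among female libraries only (-1.72, adjusted p = 0.0282) and without non-restored replicate 10 (-1.50, adjusted p = 0.0429). The fold change lay between -1.72 and -1.09 in all 27 fits, and the adjusted p reached up to 0.201. Within arms it was -1.18 against the tamoxifen arm (adjusted p = 0.166) and -1.54 against the vehicle arm (adjusted p = 0.0537), and neither passed the test. The tamoxifen-arm libraries, replicates 2, 7, 8 and 9, had 349, 389, 1160 and 287 TPM, against 189 to 352 in restored tumors.

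Cxcl2 had the largest fitted restoration difference of the 7 genes, at 2.21 (SE 0.753, adjusted p = 0.152), with 26 CPM on average in restored and 5.72 in non-restored tumors. Without the 3 libraries of high leukocyte markers it was 0.68 (SE 0.663, adjusted p = 0.777), an alternative chosen after seeing the data. Those include restored replicates 1 and 6, the highest of their group in Cxcl2, so a smaller value follows from leaving them out. The source of the Cxcl2 signal was not tested. Cxcl5 followed with 2.13 (SE 1.07, adjusted p = 0.354), which restored replicates 4 and 5 carried. For the remaining genes the log2 fold changes were 0.87 for Cxcl1 (SE 0.581), 0.61 for Csf2 (SE 0.296), -0.44 for Cxcl16 (SE 0.277) and -0.93 for Il6 (SE 0.476), with adjusted p from 0.334 to 0.517. Cxcl1 came to 1.43 without non-restored replicate 8 (adjusted p = 0.188). The median log2 fold change of the 7 genes was 0.61, beside -0.01 for all genes tested, with 4 higher and 3 lower.

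When Lkb1 was trapped, compared with KT tumors that kept it, again none of the 7 genes tested passed, against 741 of 12636 genes (5.86%). KT mice were also untreated and received less Cre virus, and neither difference can be told apart from trapping here. Of the 7 genes 4 had an unadjusted p under 0.05, as did 20.8% of all genes. Il33 differed by 1.24 (SE 0.476, adjusted p = 0.135), Cxcl1 by -1.79 (SE 0.662, adjusted p = 0.121), Cxcl2 by -2.08 (SE 0.861, adjusted p = 0.169) and Csf2 by -0.76 (SE 0.354, adjusted p = 0.221). The last 3 rested on KT replicate 3: without it they were -0.17, -0.47 and -0.16, with adjusted p of 0.93, 0.859 and 0.87. Cxcl1 passed without non-restored replicate 8 (-2.35, adjusted p = 0.0214). Il33 ranged only from 0.93 to 1.47 over 24 fits, with adjusted p from 0.0507 to 0.4, so its sign did not depend on any of the libraries left out. Cxcl16 (0.59, SE 0.348), Cxcl5 (1.41, SE 1.70) and Il6 (0.16, SE 0.568) had adjusted p of at least 0.346.

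Between restored and KT tumors none of the 7 genes passed, against 58 of 12636 genes (0.459%). These groups also differed in treatment and viral dose. For Il33 the fitted value was -0.17 (SE 0.469, adjusted p = 0.939), with an approximate 95% interval from -1.09 to 0.74. Cxcl5 had the largest value, 3.54 (SE 1.77, adjusted p = 0.499), against a KT level of 2 to 6 counts per library. The comparisons of non-restored with KT and of restored with non-restored tumors share the non-restored libraries, so their fold changes for Il33 (1.24 and -1.41), Csf2 (-0.76 and 0.61) and Cxcl1 (-1.79 and 0.87) are given side by side only.

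**Figure D4:**
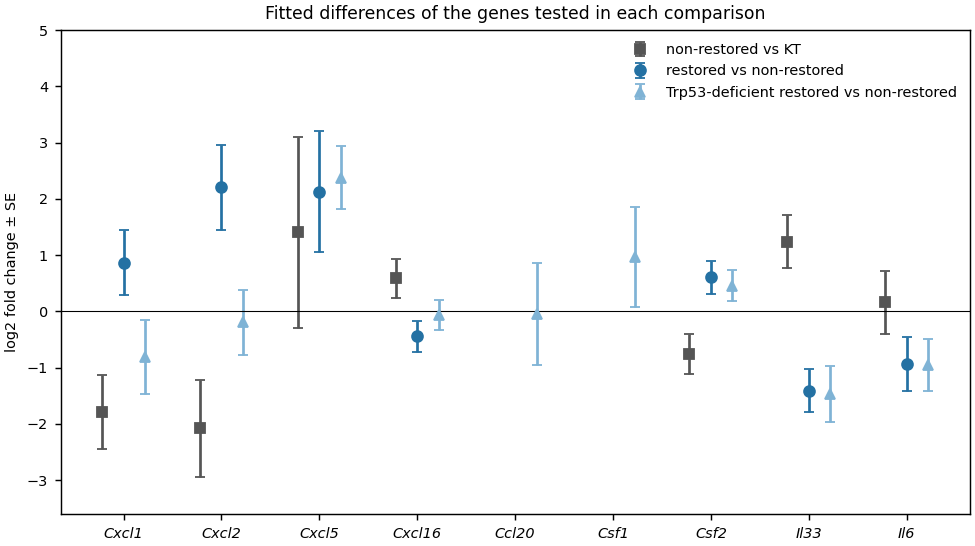
Fitted log2 fold changes ± SE from edgeR for the genes tested in 3 comparisons (squares, non-restored against KT; dark circles, restored against non-restored; light triangles, the same in Trp53-deficient tumors). Ccl20 and Csf1 were tested only among Trp53-deficient tumors and Ccl2 in none. Il33 lies at -1.41 and -1.47 in the 2 restoration comparisons, and Cxcl2 at 2.21 and -0.19.

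In Trp53-deficient tumors, with 4 non-restored animals and 4 restored libraries, 9 of the 10 genes were tested and none passed, nor did any of the 12516 genes tested by edgeR (0%). At an unadjusted p under 0.05 there were 748 genes, and DESeq2 called 26. Cxcl5 had an unadjusted p of 0.0024 and ranked 29th, with a fitted difference of 2.38 (SE 0.566, adjusted p = 0.804), at 32.9 CPM on average in restored and 6.48 in non-restored tumors. By DESeq2 its adjusted p was 0.0143, the only one of the 10 genes to pass. Il33 differed by -1.47 (SE 0.501, adjusted p = 0.804), with 775 against 2191 CPM, and by -2.17 without restored replicate 2. Il6 differed by -0.96 (SE 0.462, adjusted p = 0.804), and Cxcl1 by -0.81 (SE 0.661, adjusted p = 0.832). Csf2 had 0.46 (SE 0.28), Csf1 0.97 (SE 0.883), and Cxcl2, Cxcl16 and Ccl20 lay between -0.19 and -0.05. The restored libraries were all from females and the non-restored ones from both sexes. The part of sex in these values was not tested.

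The interaction of restoration with Trp53 status was fitted over 25 units, and none of 13706 genes passed (0%), with 422 at an unadjusted p under 0.05 and none called by DESeq2. Among the 9 genes tested, the interaction was -2.44 for Cxcl2 (SE 1.07, adjusted p = 1), and it came to -0.91 without the 3 libraries of high leukocyte markers. Those include the restored libraries of highest Cxcl2, so a smaller value follows from leaving them out. For Cxcl1 the interaction was -1.74 (SE 0.858, adjusted p = 1). For Il33, Il6 and Csf2 the interaction was -0.09 (SE 0.684), -0.07 (SE 0.564) and -0.19 (SE 0.417). The approximate 95% intervals ran from -1.43 to 1.25, from -1.17 to 1.04 and from -1 to 0.63. These intervals are wide enough to hold sizeable differences between backgrounds.

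Trp53 loss was compared within each Lkb1 state. Among non-restored tumors, none of 9 genes passed, against 80 of 13706 (0.584%), and among restored tumors none of 9 passed, against 51 of 13706 (0.372%). In non-restored tumors Cxcl1 differed by 1.67 (SE 0.554, adjusted p = 0.135) and Il33 by 0.97 (SE 0.45, adjusted p = 0.266), both higher in Trp53-deficient tumors. Cxcl1 passed with each library as its own unit (adjusted p = 0.0453), a fit that counts libraries of the same mouse as separate. It also passed without non-restored replicate 8 (2.19, adjusted p = 0.00916). In 21 fits its difference ran from 0.78 to 2.19. The Trp53-deficient animal of replicates 1 to 3 averaged 192 CPM, and the other animals 22.9, 27.8 and 83.9. Ccl20, at 1.08 (SE 1.22, adjusted p = 0.665), also passed without replicate 8 (3.93, adjusted p = 0.0356), since that library held 55 of the group's 60 counts. In restored tumors Cxcl2 differed by -2.20 (SE 0.82, adjusted p = 0.222), and by -0.40 without the libraries of high leukocyte markers. Those include the restored libraries of highest Cxcl2, so a smaller value follows from leaving them out. Csf2 differed in restored tumors by -0.62 (SE 0.306, adjusted p = 0.33) and Il33 by 0.88 (SE 0.487, adjusted p = 0.378). For each of the 10 genes the libraries or animals of the groups overlapped in CPM in all of these comparisons.

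Of the other genes of these pathways, none passed in any comparison except non-restored against KT. In that comparison 5.86% of all genes passed, and the counts of the lists below are read against that share. The KT tumors of that comparison also differed in treatment and viral dose. Of 7 listed neutrophil-attracting or platelet CXC chemokines 6 were tested, and 1 fell: Pf4, a platelet chemokine without the ELR motif, by 2.90 on the log2 scale (SE 0.441, adjusted p = 0.000368), from 229 ± 118 TPM in KT (SD, n = 4) to 32.2 ± 13.9 in non-restored tumors (n = 10). Cxcl15, the lung-specific chemokine of the same chromosome 5 cluster, was far more abundant than the 10 genes, at a mean of 4552 TPM over all libraries, and had log2 fold changes of -1.03 in non-restored against KT tumors (adjusted p = 0.112) and 0.89 in restored against non-restored tumors (adjusted p = 0.18). Of 7 colony-stimulating and hematopoietic factors 4 were tested, and Il34, the other ligand of the Csf1 receptor, fell by 0.88 (SE 0.26, adjusted p = 0.0461), from 25.9 ± 5.59 to 14.1 ± 7.45 TPM. Il34 was also the more abundant of these ligands, at 19.5 TPM against 2.34 for Csf1 over all libraries.

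Among 27 receptors and decoys 12 were tested, of which 2 fell and 1 rose in non-restored against KT tumors, where 5.86% of all genes passed. Il6ra, which binds Il6, fell by 2.01 (SE 0.318, adjusted p = 0.000496), from 6.25 ± 3.70 to 1.72 ± 0.90 TPM, and Lifr, a receptor of the IL-6 family ligand Lif, fell by 0.99 (SE 0.288, adjusted p = 0.044), from 30.4 ± 12 to 19.1 ± 8.70 TPM. Ackr3, a scavenging receptor for Cxcl12, rose (adjusted p = 0.0464) from at most 0.58 TPM in KT to 4.95 ± 4.98 TPM in non-restored tumors. Median endothelial and fibroblast marker sums were also higher there than in KT (23.3 against 8.75 and 117 against 47.9 CPM), and their part in the Ackr3 difference was not tested. The 2 receptor chains of highest level were Osmr (68.7 TPM) and Il6st (55.8 TPM). No gene passed among the 5 of 9 other CXC and CX3C chemokines tested, where Cxcl17 (53.6 TPM) and Cxcl16 led, the 4 of 21 CC and XC chemokines tested, where Ccl6 (28.4 TPM) and Ccl27a (16.0 TPM) led, or the 17 of 29 IL-1, IL-6 and other cytokines tested, where Il33 and Mif (150 TPM) led. All 21 NF-kB and feedback regulators were tested and none passed in any comparison, with list medians between -0.20 and 0.26. The most abundant of them were Zfp36 (215 TPM) and Zfp36l1 (160 TPM), which destabilize cytokine mRNAs.

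The genes whose levels over the 29 units were most like those of each chemokine or cytokine were ranked by Spearman's rho among 13273 genes, as a description. For Cxcl1 these were Myc (0.87) and Spty2d1 (0.85), for Cxcl2 Irf1 (0.76), and for Cxcl5 Frrs1 (0.85) and Il1a (0.80). For Il33 they were Map2k4 (0.92) and Morc1 (0.88), and for Il6 Nr4a1 and Nfil3 (both 0.77). Cxcl16 was nearest to Pkp2 (0.77) and Vps37b (0.75), Ccl20 to Eps8 (0.79) and Plch1 (0.78), Csf2 to Rpl21 and Tbcel (both 0.77), and Csf1 to Cp (0.65) and Gm5617 (0.63). All these values share the libraries, their depth and the groups. The lowest best match was that of Csf1, one of the genes with few counts.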

How the data were processed

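RNA was sequenced from sorted tumor cells of 32 mouse tumors in 5 groups. Per the labels and the study's methods, the authors aligned paired reads to mm10 with STAR 2.6.1d and estimated expected counts and TPM per gene with RSEM 1.2.30. The deposited tables hold these expected counts, the TPM values and effective lengths. The authors' own comparisons (DESeq2 1.26.0) were not used. On average 5.57% of the deposited expected counts above 0 were not whole. Counts were rounded and tested with edgeR 4.0.16 (limma 3.58.1, R 4.3.3): filterByExpr, TMM scaling, robust quasi-likelihood fit, Benjamini-Hochberg adjustment over all genes tested, threshold 0.05, both directions. One fit took the 21 libraries with intact Trp53, a second the Trp53-deficient animals, and a joint fit 25 units for the interaction and for Trp53 loss, with libraries of an animal summed. Genes were named by rule: the 10 genes, the 2 of highest mean TPM and up to 3 called per comparison in each pathway list, and the 2 most alike by Spearman's rho (1 of these is not reported here). The genes and lists were chosen with earlier results of these data known. Depth was 1302482 to 5943951 counts; the floor of 3 counts covers counting error only. Gene positions are from the GRCm38 annotation, promoters from RefSeq (GRCm38.p6). Alternatives were DESeq2 1.42.0, its size factors, no filter, length offsets, libraries as units, females only, each control arm, a replicate block, leaving out each library or animal and, chosen after seeing the data, leaving out 3 libraries of high leukocyte markers. The scripts were tested on simulated data. Whether equal replicate numbers pair samples was checked by correlation of deviations from group means: over 15 pairs it ran from -0.05 to 0.48, with 6 above 0.1, so the numbers were not taken to pair them. Tables were handled in pandas 2.3.3 (Python 3.11.15) and figures drawn in matplotlib 3.10.9.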

Additional observations from a re-analysis of the deposited data

Results flagged for a closer look

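In groups of 4 to 10 samples, 48 sets of gene and group were searched for a library far from the rest by Dixon's criterion. Chance meets it in about 1 of 20 sets if the values are normally distributed. Of the 5 found, 4 belong to non-restored replicate 8, a tamoxifen-treated female without FLPo-ERT2. It had 97.0 CPM of Cxcl1 against 7.19 to 27.2 in the other 9 libraries of its group, 43.9 CPM of Cxcl5 against 0 to 2.17, 108 CPM of Cxcl16 against 31.5 to 55.2 and 12.8 CPM of Ccl20 against 0 to 1.03. The same library had the lowest epithelial and alveolar type II marker sum of all 32, 7687 CPM, while its leukocyte sum was 2.32 CPM, with the cause not tested. The remaining one was a low value, 1.36 CPM of Cxcl5 in KT replicate 1 against 2.39 to 2.48 in the other 3 KT libraries, from 2 counts.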

How the results depend on the processing

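None of the 57 tested values of the 10 genes passed by edgeR, and of 1185 refitted values 1099 kept sign and side of the threshold, 8 passed it and 78 changed sign; the cause was not tested. Restored against non-restored, genes called numbered 236, 471 with DESeq2, 50 against the tamoxifen arm, 89 without the libraries of high leukocyte markers and 145 (without restored replicate 7) to 319 leaving out a library; of the 10 genes 1 passed with DESeq2, 1 among females and 0 to 1 leaving out a library. Non-restored against KT, they numbered 741, 132 among females, 280 for the tamoxifen arm and 340 (without KT replicate 1) to 951 (without non-restored replicate 8), with 0 to 1 of the 10. Restored against KT, 58 became 176 with DESeq2, 10 among females, 32 without the high leukocyte libraries and 21 to 57 leaving out a library. For Trp53-deficient restoration, 0 became 26 with DESeq2 (1 of the 10), 3 without the filter, 1 with length offsets, 1 with libraries as units and 0 to 1 leaving out an animal, and for the interaction 0 to 1. For Trp53 loss in non-restored tumors, 80 became 416 with DESeq2, 465 with libraries as units (1 of the 10), 32 without the high leukocyte libraries and 26 (without the animal of replicates 1 to 3) to 1448 (without non-restored replicate 8), with 0 to 2 of the 10. In restored tumors, 51 became 225 with DESeq2, 32 without the high leukocyte libraries and 25 to 64 leaving out a library.

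With a replicate block, 270, 705 and 67 genes passed in the 3 Trp53 wild-type comparisons, none of them among the 10, and Il33 had -1.26 (adjusted p = 0.108) for restoration. Equal replicate numbers were not taken to pair the samples. Depth limits Ccl2, Ccl20 and Csf1, whose counts sum to 55, 299 and 274 over 32 libraries.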
